A study of Mus musculus with 16 samples.

Results

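The genes described here are 9 components and regulators of the complement system, followed across the 4 groups of a hippocampal RNA-sequencing experiment in mice. They were the genes of the deposited count table with the names C1qa, C1qb, C1qc, C1ra, C4b, C3, C3ar1, Serping1 and Cd59a, which is 9 of the 55335 genes in that table. All 9 had enough counts to be tested. Bulk RNA was taken from whole hippocampi of 16 female mice, 4 in each group, at 10 months of age. WT mice were of the strain C57BL/6J x 129S1. 3xTg mice (B6;129-Psen1tm1MpmTg(APPSwe,tauP301L)1Lfa/Mmjax), a model of Alzheimer's disease, carried a mutant presenilin 1 knock-in and transgenes for human APP with the Swedish mutation and human tau P301L. Both transgenes were driven by the Thy1.2 regulatory element and so expressed in neurons. The 3xTg and WT lines were separate strains, and a strain difference and an effect of the mutant genes cannot be told apart here. All mice carried a pump that infused the cerebral ventricle for 28 days. Vehicle groups (WT-D and 3xTg-D) received 0.8% DMSO in artificial cerebrospinal fluid, and inhibitor groups (WT-S and 3xTg-S) received 80 µM of CAY10566, an inhibitor of stearoyl-CoA desaturase, in the same vehicle. The treatment labels name this Cayman compound, although the protocol given with the samples describes a different inhibitor, ab142089.

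Complement is a cascade of plasma and tissue proteins that tags particles for removal. C1q, a recognition molecule built from the chains A, B and C, binds its target and activates the proteases C1r and C1s, which cleave C4 and C2. The enzyme they form cleaves C3, whose fragments coat the target and whose small fragment C3a signals through the receptor C3ar1, and inhibitors such as C1 inhibitor (Serping1) and CD59 limit the cascade at its start and at its end. In the brain, C1q is made mainly by microglia, C4 by astrocytes and other glia, and C1q and C3 are known for their part in the removal of synapses.

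All 9 genes lie on GRCm38, and no exon of any of them overlapped an exon of another gene. C1qa (chr4:136895917-136898803), C1qc (chr4:136889804-136893065) and C1qb (chr4:136880129-136886187) are neighbours on the minus strand of chromosome 4. C4b (chr17:34728380-34743882) and C3 (chr17:57203970-57228136) lie on the minus strand of chromosome 17, and C3ar1 (chr6:122847138-122856161) on that of chromosome 6. C1ra (chr6:124512405-124523443) is on the plus strand of chromosome 6. Serping1 (chr2:84765387-84775444) is on the minus strand and Cd59a (chr2:104095801-104115354) on the plus strand of chromosome 2. C4b, C1ra and Cd59a have paralogs nearby, C4a, C1rb and Cd59b, and an aligner can place reads from shared stretches on either gene. How alike the paralogs are was not measured here. Over the 16 mice, C4a held 320 reads against 17663 of C4b, Cd59b 92 against 2219 of Cd59a, and C1rb 2 against 420 of C1ra.

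Promoter windows were available in RefSeq on GRCm38.p6 for 6 of the 9 genes, which were C1qb, C1qc, C1ra, C3, C3ar1 and Cd59a. The sequences are the bases upstream of the transcript start for C1qb and C1qc, which rose and fell together over the mice, and for C3 and Cd59a, which passed the test in at least 1 comparison. Capitals mark 1 of the motifs that were searched on both strands. GAGGAAGT, the letters of a site for the myeloid factor PU.1, occurred in 3.2% of 32851 promoter windows of 300 bases and in 1 of the 6 windows here. It lies in C1qc, on the strand opposite to the gene (as ACTTCCTC), 195 bases before the RefSeq start. GAAANNGAA, letters shared by interferon-stimulated response elements, occurred in 8.56% of all windows and in 1 of the 6, in Cd59a at 187 bases before the start. For C1qc the part that lies before both the RefSeq start and the start in the deposited table is given, since the 2 starts are 151 bases apart. The coordinates are chr4:136886201-136886450 for C1qb, chr4:136893066-136893164 for C1qc and chr17:57228137-57228386 for C3, all on the minus strand, and chr2:104095551-104095800 for Cd59a on the plus strand.
C1qb: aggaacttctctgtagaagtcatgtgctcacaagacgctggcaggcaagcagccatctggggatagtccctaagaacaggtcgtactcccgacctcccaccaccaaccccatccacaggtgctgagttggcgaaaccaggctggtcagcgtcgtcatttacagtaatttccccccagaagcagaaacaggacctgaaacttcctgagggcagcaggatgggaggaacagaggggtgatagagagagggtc
C1qc: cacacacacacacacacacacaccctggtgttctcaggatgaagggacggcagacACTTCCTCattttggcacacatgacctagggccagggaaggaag
C3: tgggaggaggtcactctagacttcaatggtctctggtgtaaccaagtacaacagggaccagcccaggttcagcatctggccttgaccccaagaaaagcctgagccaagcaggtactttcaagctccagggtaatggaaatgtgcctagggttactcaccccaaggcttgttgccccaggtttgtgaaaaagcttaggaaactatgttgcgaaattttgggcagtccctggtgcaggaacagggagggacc
Cd59a: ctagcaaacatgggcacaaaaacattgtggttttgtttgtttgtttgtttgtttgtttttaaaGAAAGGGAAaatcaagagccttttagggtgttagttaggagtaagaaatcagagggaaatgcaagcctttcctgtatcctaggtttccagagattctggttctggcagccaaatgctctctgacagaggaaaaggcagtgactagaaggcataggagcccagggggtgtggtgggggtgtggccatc
The C1qb and C3 windows held neither motif.

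Reads on genes numbered 15413385 to 23590149 per mouse, and 7.82% to 15.1% of uniquely mapped reads fell outside annotated genes. Expression is given as CPM, which is counts scaled to a common library size after TMM normalisation. Thy1, whose regulatory element drives both transgenes, ranged from 517 to 625 CPM in the 8 WT mice and from 1564 to 2139 CPM in the 8 3xTg mice, so that no WT mouse overlapped a 3xTg mouse. The 6 genes used as hippocampal markers, among them Prox1 and Neurod6, were detected in every mouse at a summed level of 643 to 818 CPM. The 8 choroid plexus markers listed, with Ttr among them, summed to 27.5 to 61.3 CPM in 14 mice. They summed to 736 CPM in WT-D mouse 4 and to 294 CPM in WT-S mouse 1. Of the 8, 6 had enough counts to be tested.

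A pair of libraries stood apart for the complement genes, and the results below are given with and without them where they matter. Both were singled out by the levels of these same genes, so p-values from fits without them are descriptions. In WT-D mouse 1, 61 of the 16475 tested genes were at least 2-fold above all other 15 mice, against 0 to 7 genes in any other mouse. Its level was the highest of the 16 mice for 6 of the 9 complement genes, and its ratio to the mean of the other 3 WT-D mice was 13.8 for C3, 5.22 for C1ra, 3.95 for C4b, 3.35 for Serping1, 2.98 for C3ar1 and 2.25 to 2.74 for the 3 C1q genes. Cd59a was the exception at 0.581 of the other 3 WT-D mice. C1s1, the partner protease of C1r, which was singled out after its values were seen, was at 5.65 CPM in this mouse and at 0.458 to 1.22 CPM in the others.

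In 3xTg-D mouse 2, the 3 C1q genes were 2.22 to 2.28 times the mean of the other 3 3xTg-D mice, Serping1 was at 2.12 times and C3ar1 at 1.58 times. C4b, C3, C1ra and Cd59a were at 1.14 to 1.36 times. The mice differed in their cell type markers. Of 12 microglial markers, 10 were highest of all mice in 3xTg-D mouse 2 and 1 in WT-D mouse 1, and of 8 astrocyte markers 7 were highest in 3xTg-D mouse 2 and 0 in WT-D mouse 1. The part of cell composition in these levels was not tested, and in bulk RNA more cells of a type and more RNA per cell cannot be told apart.

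**Figure D1:**
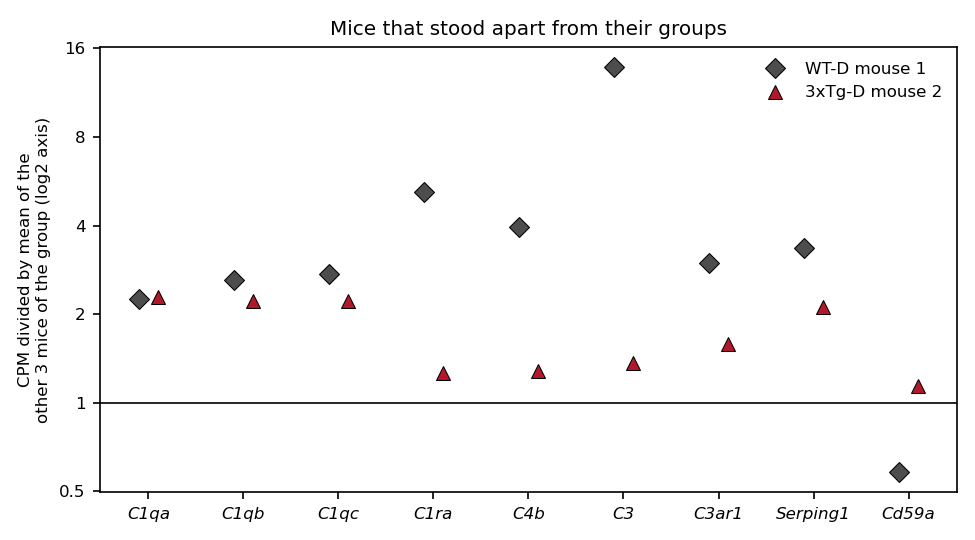
Level of each of the 9 complement genes in WT-D mouse 1 (diamonds) and 3xTg-D mouse 2 (triangles), divided by the mean of the other 3 mice of the same group, on a log2 axis. WT-D mouse 1 lies at 2.25 to 13.8 for 8 genes and at 0.581 for Cd59a, while 3xTg-D mouse 2 lies near 2.2 for the C1q genes and nearer to 1 for C4b, C3, C1ra and Cd59a.

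Levels were compared between genes only per kb of exon. In WT-S mice, whose group held no mouse that stood apart for these genes, C1qa was at 25.5 ± 3.08 CPM per kb (SD, n = 4) and C1qb at 25.1 ± 2.84, which did not differ beyond their spread. C1qc followed at 12.7 ± 1.83, then C4b at 5.66 ± 1.74, Cd59a at 3.17 ± 1.43, Serping1 at 1.70 ± 0.688, C3 at 1.197 ± 0.899, C3ar1 at 0.579 ± 0.109 and C1ra at 0.384 ± 0.0668 CPM per kb. Neighbours in this order from C4b to C3ar1 overlapped within 1 SD, whereas C1qb and C1qc, C1qc and C4b, and C3ar1 and C1ra did not.

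**Figure D2:**
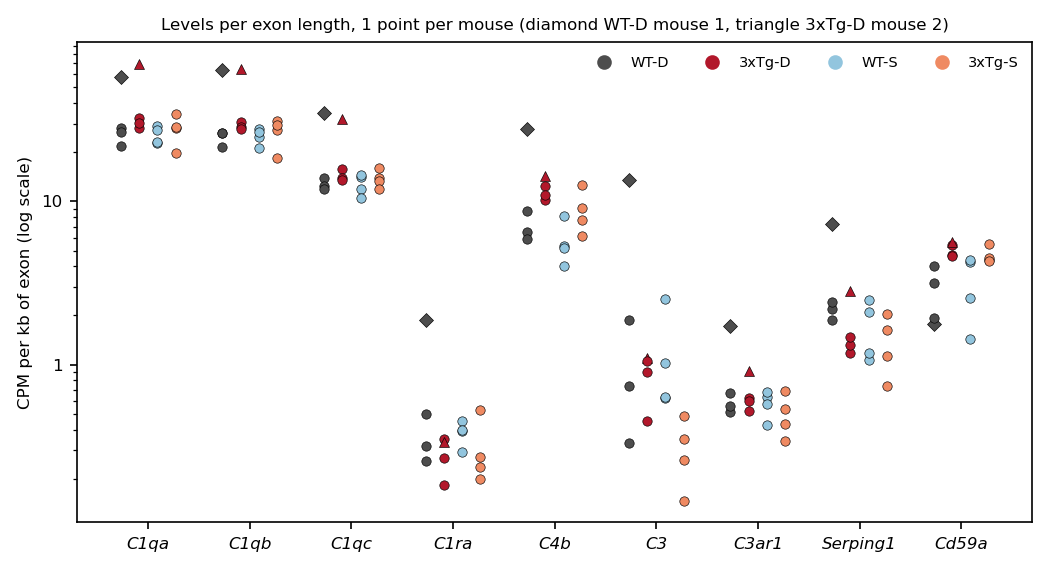
Level of the 9 complement genes in CPM per kb of exon on a log axis, with 1 point per mouse, coloured by group. C1qa and C1qb lie highest, at 25.5 and 25.1 CPM per kb on average in WT-S mice, and C1ra and C3ar1 lie low apart from WT-D mouse 1 (diamonds).

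The 3 C1q genes encode the recognition subunit that starts the classical pathway. C1qb was at 69.9, 28.4, 23.3 and 28.5 CPM in WT-D mice 1 to 4 and at 33.3, 70.02, 31.1 and 30.1 CPM in 3xTg-D mice 1 to 4. It was at 27.2, 30.2, 28.9 and 23.1 CPM in WT-S mice and at 29.8, 33.8, 31.9 and 20.1 CPM in 3xTg-S mice. The groups overlapped in every comparison, and 1 mouse in each vehicle group was more than 2-fold above the rest of its group. C1qa and C1qc had the same shape, with 60.0 and 67.6 CPM in WT-D mouse 1, 71.9 and 61.9 CPM in 3xTg-D mouse 2, and 20.3 to 35.8 CPM in the other 14 mice. Over the 16 mice, the share of each chain in the summed C1q level stayed within 30.4% to 35.9% for C1qa, 31.6% to 36.7% for C1qb and 29.0% to 36.2% for C1qc.

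No C1q gene passed edgeR's test in any comparison when genes with low counts were removed and the fit held no block or covariate. Between WT-D and 3xTg-D, the log2 fold changes were 0.25 ± 0.35 (SE) for C1qa, 0.13 ± 0.38 for C1qb and 0.04 ± 0.39 for C1qc, with unadjusted p of 0.486 to 0.913 (edgeR quasi-likelihood test, adjusted p 0.816 to 0.976). Without WT-D mouse 1 they were 0.65, 0.63 and 0.57 (unadjusted p 0.0485, 0.0477 and 0.066), and without that mouse and 3xTg-D mouse 2 they were 0.24, 0.23 and 0.18 (p 0.0303, 0.0214 and 0.066), so that the size of the difference rested on those mice. With WT-D mouse 1 left out, C1qa and C1qb did not overlap between the groups, with 22.6 to 29.41 CPM in WT-D and 29.42 to 71.9 CPM in 3xTg-D for C1qa, so that the groups touched. Between WT-S and 3xTg-S the log2 fold changes were 0.06 to 0.11 (p 0.42 to 0.685), and between 3xTg-D and 3xTg-S they were −0.53 ± 0.28, −0.51 ± 0.27 and −0.45 ± 0.25 for C1qa, C1qb and C1qc (p 0.0835 to 0.103). The last of these came down to −0.14, −0.14 and −0.07 without 3xTg-D mouse 2 (p 0.395 to 0.515).

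The C1q level moved with microglial markers. The summed level of C1qa, C1qb and C1qc and that of 12 microglial markers (among them Csf1r, P2ry12 and Cx3cr1) had a Pearson's r of 0.901 and a Spearman's rho of 0.844 over the 16 mice, and 0.894 and 0.767 over the 14 mice without WT-D mouse 1 and 3xTg-D mouse 2. These are descriptions, since the mice come from 4 groups and the levels share the scaling of each library. The ratio of the 2 sums was 0.302 in WT-D mouse 1, 0.238 in 3xTg-D mouse 2 and 0.154 to 0.194 in the other 14 mice. No comparison of the ratio passed an exact permutation test (p 0.0857 to 0.629, where 4 mice against 4 allow no p below 0.0286). The score over the microglial markers passed that test in none of the 5 comparisons either, with exact permutation p of 0.20 to 0.914. Its log2 difference was 0.34 for 3xTg-D minus WT-D, −0.33 for 3xTg-S minus 3xTg-D, and −0.06 to 0.07 in the other comparisons. With 4 mice per group, a difference was not shown and not excluded.

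**Figure D3:**
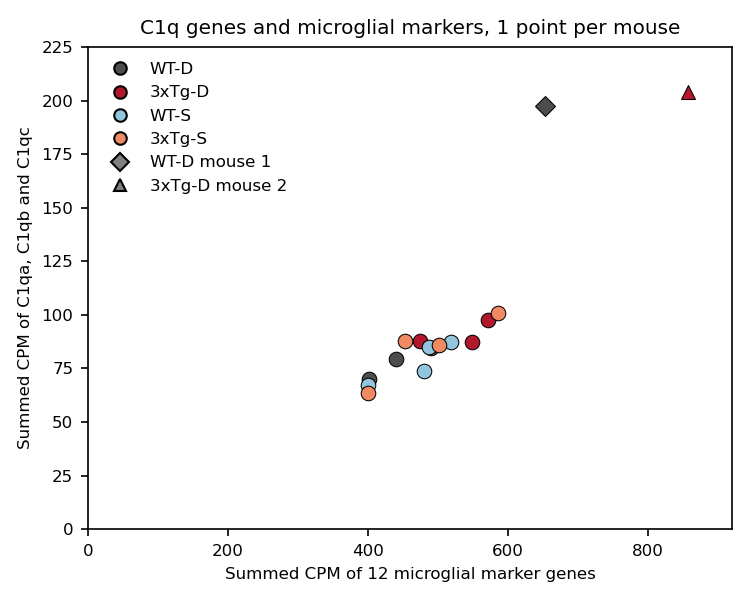
Summed CPM of C1qa, C1qb and C1qc against summed CPM of 12 microglial marker genes, 1 point per mouse, coloured by group. In 14 mice the C1q sum is 0.154 to 0.194 of the marker sum, and WT-D mouse 1 (diamond, 0.302) and 3xTg-D mouse 2 (triangle, 0.238) lie above them.

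Genes with the pattern most like C1qa over the 16 mice were C1qb (r = 0.984), Lpcat2 (0.969), Laptm5 (0.957), C1qc (0.955) and Itgb5 (0.952), in log2 CPM. After the group means were subtracted, C1qb (0.983), Laptm5 (0.972), Irf8 (0.965), Lpcat2 (0.963) and Itgb5 (0.958) came first. Irf8 encodes a transcription factor of myeloid cells and Laptm5 a lysosomal protein of haematopoietic cells. Over the other 15 mice the first 5 were C1qb, Lpcat2, Itgb5, C1qc and Irf8, and the r of C1qa with C1qb was 0.985 over 15 mice.

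C1ra encodes the protease C1r, which C1q activates. It was at 5.57 CPM in WT-D mouse 1 and at 0.544 to 1.57 CPM in the other 15 mice, which is 10 to 31 reads against 132. Its log2 fold change between WT-D and 3xTg-D was −1.38 ± 0.60 (unadjusted p 0.0439, adjusted p 0.373, edgeR) and −0.33 ± 0.32 (p 0.329) without that mouse. With WT-D mouse 1 included, C1ra was called lower in 3xTg-D without the filter on low counts (p 0.00948, edgeR). The same held with the choroid plexus score (p 0.00287), the share of reads outside genes (p 0.0072) or the microglia score (p 0.000536) as a covariate. In the other comparisons it did not pass the test in the main fits, with unadjusted p of 0.0654 to 0.799. Between WT-D and 3xTg-S it was called lower with the choroid plexus score (−1.97, p 0.00537) or the replicate block (−1.04, p 0.00906).

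C4b encodes complement C4, the substrate of the C1 proteases. It was at 158, 36.8, 33.3 and 49.8 CPM in WT-D mice 1 to 4, and at 70.4, 81.4, 58.2 and 62.3 CPM in 3xTg-D mice 1 to 4. Apart from WT-D mouse 1, which was highest of all, every 3xTg-D mouse was above every WT-D mouse. With all 8 mice the log2 fold change was −0.04 ± 0.43 (unadjusted p 0.935, adjusted p 0.98, edgeR). Without WT-D mouse 1 it was 0.77 ± 0.15, or 1.70-fold higher in 3xTg-D (unadjusted p 0.000425, adjusted p 0.0377), and without WT-D mouse 1 and 3xTg-D mouse 2 it was 0.67 ± 0.13 (p 0.00022, adjusted p 0.0187). So 1 library decided whether C4b was called. It was called higher in 3xTg-D in each fit that left that library out, also with the replicate number as a block (0.76, p 0.000683, edgeR). That library was singled out by its high levels of these genes, C4b among them. The p-values without it are therefore not independent support for a difference.

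In the inhibitor groups, C4b was at 30.4, 22.8, 29.5 and 46.1 CPM in WT-S mice 1 to 4 and at 71.5, 34.9, 52.0 and 44.1 CPM in 3xTg-S mice 1 to 4. Of the 4 3xTg-S mice, 2 were above all WT-S mice, and the groups overlapped between 34.9 and 46.1 CPM. The log2 fold change was 0.64 ± 0.23, or 1.56-fold, with an unadjusted p of 0.0203 and an adjusted p of 0.324 in edgeR's test, which did not pass the threshold of 0.01. DESeq2's likelihood ratio test put the same fold past that threshold (p 0.00614, adjusted p 0.159), and edgeR did so without WT-S mouse 4 (0.85, p 0.00216) and without 3xTg-S mouse 2 (0.78, p 0.00455). The difference between 3xTg-D and 3xTg-S was −0.43 ± 0.19 (p 0.0457, adjusted p 0.722), with overlapping groups, and it was called without 3xTg-S mouse 1 (−0.64, p 0.00201, adjusted p 0.738). That between WT-D and WT-S was −1.12 ± 0.46 (p 0.0344, adjusted p 1.00) with all mice and −0.31 ± 0.21 (p 0.164) without WT-D mouse 1.

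Among the 5 genes most like C4b over the 16 mice were Parp12 (r = 0.858), Uba7 (0.857), Capn3 (0.851) and Hk3 (0.850). After subtraction of the group means they were Nlrc5 (0.950), Samhd1 (0.943), Irf1 (0.943), Uba7 (0.941) and Plcg2 (0.939). Irf1 encodes a transcription factor of the interferon response, and Nlrc5 is the transactivator of MHC class I genes. These likenesses leaned on WT-D mouse 1: without it, r was 0.764 for Parp12 and 0.466 for Irf1 over 15 mice, and Serpinf2 (0.910) and Cxcl13 (0.893) came first.

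C3 is the central component on which the pathways converge. It was at 69.96, 9.69, 1.70 and 3.83 CPM in WT-D mice 1 to 4 and at 4.67, 5.62, 2.33 and 5.39 CPM in 3xTg-D mice 1 to 4. It was at 12.9, 5.23, 3.21 and 3.25 CPM in WT-S mice and at 2.48, 1.33, 1.80 and 0.755 CPM in 3xTg-S mice. The 3xTg-S mice had the lowest group of values, with 14 to 38 reads each, and all 4 were below all 4 WT-S mice. WT-D was the most variable group, at 21.3 ± 32.6 CPM (SD, n = 4) with all mice and 5.07 ± 4.14 CPM (n = 3) without mouse 1.

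Between WT-S and 3xTg-S, C3 was lower in 3xTg-S by a log2 fold change of −1.99 ± 0.50, or to 0.251 of WT-S (unadjusted p 0.00217, adjusted p 0.101, edgeR). It passed the threshold of 0.01 in each of the 8 fits that left out 1 mouse, with log2 fold changes of −2.28 to −1.32, and not in the fit of all 16 mice together (−1.98, p 0.0554), in which the spread is shared with WT-D. WT-S mouse 1, the highest of the group for C3, was also the WT-S mouse with choroid plexus markers. With the choroid plexus score as a covariate the log2 fold change was −1.23 (p 0.00249), and without that mouse it was −1.32 (p 0.00431).

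In 3xTg mice, C3 was lower with the inhibitor than with vehicle, by a log2 fold change of −1.52 ± 0.35, or to 0.348 of 3xTg-D (unadjusted p 0.00138, adjusted p 0.722, edgeR). The groups overlapped, since 3xTg-D mouse 3 at 2.33 CPM was below 3xTg-S mouse 1 at 2.48 CPM, and the other mice did not cross. It passed the threshold of 0.01 in all 8 fits that left out 1 mouse and not in the fit of all 16 mice (−1.53, p 0.137). Between WT-D and 3xTg-S the log2 fold change was −3.80 ± 1.10 (p 0.00589, adjusted p 0.134), and −1.71 ± 0.55 (p 0.0112) without WT-D mouse 1. That call was lost in 5 of the 8 fits that left out 1 mouse. Between WT-D and 3xTg-D it was −2.25 ± 0.95 (p 0.0393, adjusted p 0.357), and −0.18 ± 0.48 (p 0.723) without that mouse, while without WT-D mouse 3 it was called (−2.63, p 0.00994). With WT-D mouse 1 included, C3 was also called lower in 3xTg-D without the filter on low counts (p 0.00468, edgeR). The same held with the choroid plexus score (p 0.00289), the share of reads outside genes (p 0.00924) or the microglia score (p 0.00196) as a covariate. The comparisons with 3xTg-S share its 4 mice and are not independent of each other.

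The inhibitor's effect on C3 was not shown to differ between genotypes. In WT mice the log2 fold change with the inhibitor was −1.80 ± 0.97 (p 0.0906), and 0.28 ± 0.59 (p 0.642) without WT-D mouse 1. The interaction term over all 16 mice was 0.26 ± 1.29 (unadjusted p 0.842, adjusted p 0.961, edgeR), and −1.81 ± 0.79 (p 0.0366, adjusted p 0.796) without WT-D mouse 1.

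Genes most like C3 over the 16 mice were H2-T10 (r = 0.835), C3ar1 (0.826), Ctsc (0.825), Shroom3 (0.824) and Gcnt1 (0.822). With group means subtracted they were Bbs12 (0.910), Pirb (0.899), Ptpn6 (0.875), Mcl1 (0.872) and Arhgap45 (0.842). None of these but Gcnt1 (0.798) was among the first 5 without WT-D mouse 1, when 1700008J07Rik (0.822), Ephx1 (0.812) and Ccdc153 (0.805) came first.

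C3ar1 encodes the receptor for C3a. It was at 7.43, 2.88, 2.20 and 2.40 CPM in WT-D mice and at 2.69, 3.94, 2.23 and 2.56 CPM in 3xTg-D mice, 42 to 176 reads each. It was at 1.84 to 2.93 CPM in WT-S and 1.46 to 2.95 CPM in 3xTg-S mice. The groups overlapped in every comparison. In edgeR's main fits no comparison passed the test, with log2 fold changes of −0.82 ± 0.41 (WT-D vs 3xTg-S, unadjusted p 0.0698) to −0.23 ± 0.25 (WT-S vs 3xTg-S, p 0.365). The differences from WT-D rested on WT-D mouse 1. Without it, the log2 fold change was −0.23 ± 0.25 (p 0.393) in 3xTg-S, 0.20 ± 0.22 (p 0.388) in 3xTg-D and 0.01 ± 0.21 (p 0.97) in WT-S mice, against −0.39 ± 0.38 (p 0.334) in 3xTg-D and −0.59 ± 0.38 (p 0.148) in WT-S mice with it. With the microglia score as a covariate and WT-D mouse 1 included, C3ar1 was called lower than in WT-D in 3xTg-D (−0.86, p 0.00545) and in 3xTg-S (−0.73, p 0.00171, edgeR). Its pattern was most like that of Lgmn (r = 0.949), Naip2 (0.936), Rac2 (0.934), Mpeg1 (0.934) and Arpc1b (0.932) over 16 mice, and of Lgmn (0.946), Ctss (0.946), Lair1 (0.941), Mpeg1 (0.940) and Lcp1 (0.932) after the group means were subtracted. Lgmn and Ctss encode lysosomal proteases, legumain and cathepsin S. Without WT-D mouse 1, S100b (0.918, against 0.377 over 16 mice), Ctso (0.917), Prdx1 (0.915), Leprot (0.912) and Lgmn (0.912) came first. Its r with C3 was 0.83 over 16 mice and 0.60 over 15, and with C1qa 0.82 and 0.76.

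Serping1 encodes C1 inhibitor, which blocks the C1 proteases. It was at 16.9, 5.09, 5.65 and 4.39 CPM in WT-D mice and at 2.74, 6.54, 3.07 and 3.43 CPM in 3xTg-D mice. Of the 3xTg-D mice, 3 were below all WT-D mice and mouse 2 was above 3 of them. The log2 fold change was −1.01 ± 0.45 (unadjusted p 0.0475, adjusted p 0.387, edgeR) with all mice and −0.34 ± 0.28 (p 0.256) without WT-D mouse 1. Of the fits that left out mice, the 1 without WT-D mouse 1 and 3xTg-D mouse 2 called it lower in 3xTg-D, at −0.71 ± 0.16 (p 0.00112, adjusted p 0.0557). It was also called lower with each of 3 covariates, the choroid plexus score (−1.40, p 0.00599), the share of reads outside genes (−1.63, p 0.00155) and the microglia score (−1.61, p 9.3e-05, adjusted p 0.0092), and without the filter on low counts (−1.02, p 0.00918). In WT-S mice it was at 2.48 to 5.75 CPM and in 3xTg-S mice at 1.72 to 4.77 CPM, and the difference was −0.32 ± 0.34 (p 0.364). Between WT-D and 3xTg-S it was −1.36 ± 0.47 (p 0.0152) with all mice and −0.68 ± 0.29 (p 0.0429) without WT-D mouse 1. With WT-D mouse 1 included, it passed the threshold in DESeq2 (p 0.00245), in the fit of all 16 mice (p 0.00841) and without WT-D mouse 4 (−1.56, p 0.00853). Without WT-D mouse 1 it passed when the replicate number was used as a block (−0.95, p 0.00413, edgeR).

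The genes most like Serping1 over the 16 mice were Fgl2 (r = 0.919), Parp3 (0.912), Gbp4 (0.912), H2-Q6 (0.912) and H2-Aa (0.896). After subtraction of the group means they were Fgl2 (0.928), Cd44 (0.915), Parp3 (0.904), H2-Ab1 (0.895) and Tgtp2 (0.891). H2-Q6, H2-Aa and H2-Ab1 are MHC genes, and Gbp4 and Tgtp2 encode interferon-inducible GTPases. When WT-D mouse 1 was left out, Slc6a20a (0.933), Slc22a6 (0.931) and Aldh1a2 (0.928) came first.

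Cd59a encodes CD59, a membrane-anchored inhibitor of the terminal pore. It was at 3.21, 5.76, 3.50 and 7.29 CPM in WT-D mice and at 9.77, 10.1, 8.48 and 8.39 CPM in 3xTg-D mice. It was at 7.74, 2.59, 7.97 and 4.66 CPM in WT-S mice and at 7.90, 9.91, 8.15 and 7.82 CPM in 3xTg-S mice. Every 3xTg-D mouse was above every WT-D mouse, and all 8 3xTg mice lay between 7.82 and 10.1 CPM, whereas WT mice ranged from 2.59 to 7.97 CPM. Between WT-S and 3xTg-S the groups overlapped, because WT-S mouse 3 at 7.97 CPM was above 2 of the 3xTg-S mice.

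Cd59a was higher in 3xTg-D than in WT-D by a log2 fold change of 0.90 ± 0.24, or 1.87-fold (unadjusted p 0.00308, adjusted p 0.103, edgeR). This did not rest on WT-D mouse 1, without which it was 0.74 ± 0.21 (p 0.00552), and it passed the threshold of 0.01 in each of the 8 fits that left out 1 mouse. It missed the adjusted threshold of 0.05 with edgeR and passed it with DESeq2 (adjusted p 0.00956). In the inhibitor groups the log2 fold change was 0.54 ± 0.29 (p 0.0862, adjusted p 0.569), and between WT-D and 3xTg-S it was 0.76 ± 0.24 (p 0.0101, adjusted p 0.176), with groups that did not overlap. That difference was called by DESeq2 (p 0.00276) and, in edgeR, without WT-D mouse 4 (1.01, p 0.00102). The inhibitor groups did not differ from the vehicle groups of the same genotype beyond the spread, at −0.12 ± 0.12 (p 0.328) in 3xTg and 0.23 ± 0.36 (p 0.536) in WT mice. Oligodendrocyte markers, 6 genes with Mbp among them, were also higher in 3xTg-D (5525 to 6600 CPM summed) than in WT-D mice (4262 to 5051 CPM) without overlap, and their part in the Cd59a difference was not tested. The score over these markers had an exact permutation p of 0.0857, or 0.476 adjusted over the 50 marker tests.

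**Figure D4:**
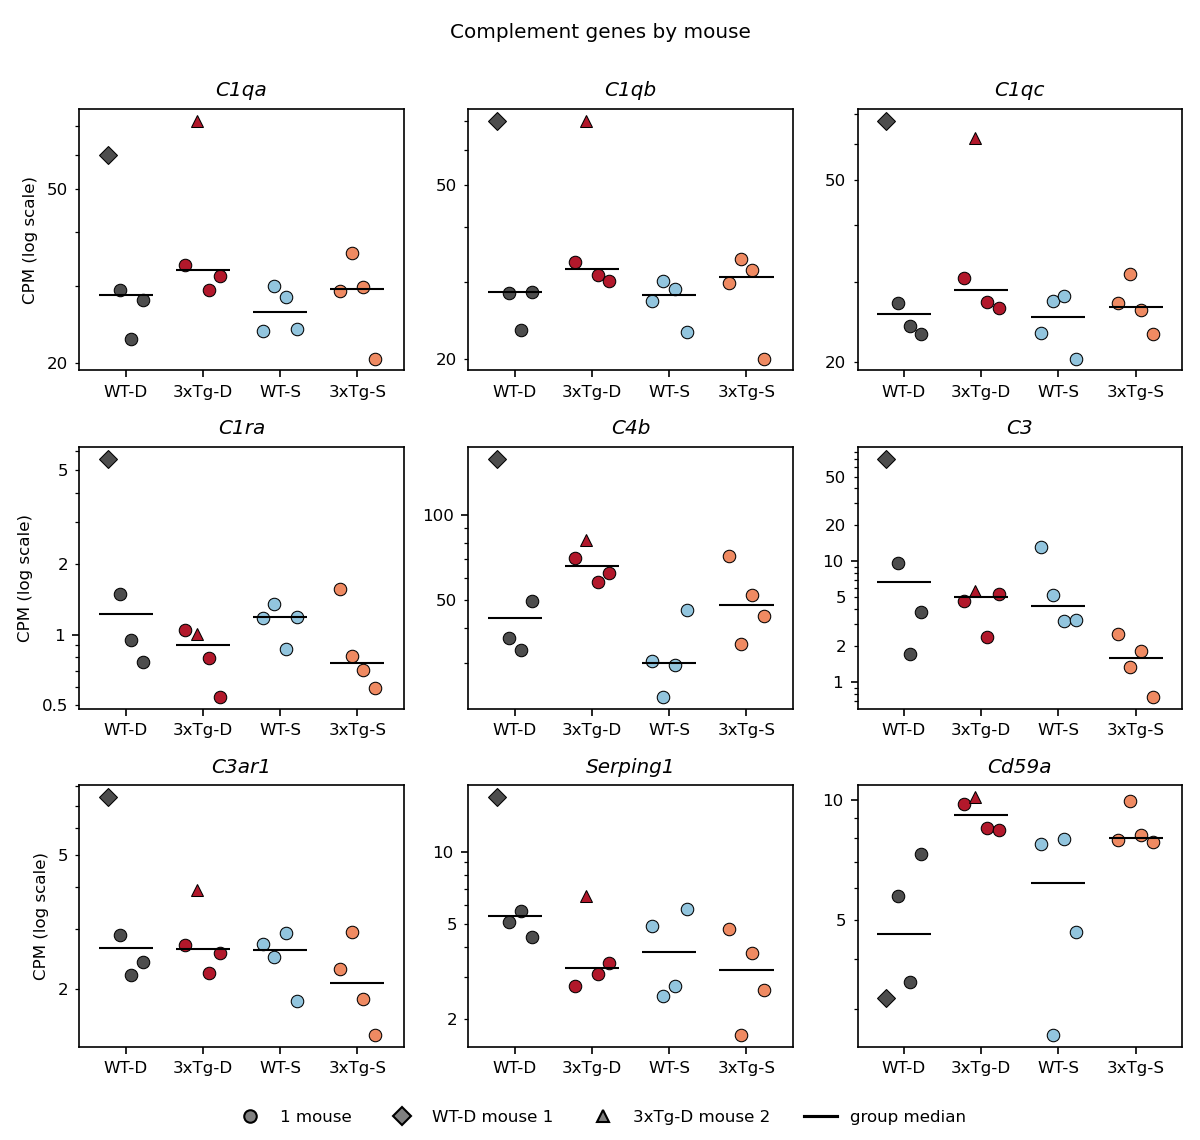
CPM of the 9 complement genes on log axes, 1 symbol per mouse with a line at the group median. WT-D mouse 1 (diamond) is highest of all for C1qc, C1ra, C4b, C3, C3ar1 and Serping1, the 4 3xTg-S mice are lowest as a group for C3, and all 3xTg mice lie at or above 7.82 CPM for Cd59a.

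Counted over the 9 genes, 1 was called between WT-D and 3xTg-D (Cd59a, higher in 3xTg-D) at an unadjusted p of 0.01 or less, beside 4.91% of all 16475 genes tested. Without WT-D mouse 1, 2 were called (C4b and Cd59a, both higher), beside 4.06% of all genes, and C4b was the 1 that passed an adjusted p of 0.05 in edgeR's test, beside 1.26%. Leaving out 3xTg-D mouse 2 as well gave 3 (Serping1 lower, C4b and Cd59a higher), beside 5% of all genes. The median log2 fold change over the 9 genes was −0.04 with all mice and 0.57 without WT-D mouse 1, and 0.18 without that mouse and 3xTg-D mouse 2, while that of all genes was 0.00 in each. With the score over the microglial markers as a covariate, 6 of 9 were called, beside 5.61% of all genes. C1qc, C3, C3ar1, Serping1 and C1ra were lower and Cd59a higher in 3xTg-D. That fit included WT-D mouse 1, which was the highest of all mice for each of the genes called lower. The groups did not overlap for 1 of the 9 genes with all mice, beside 8.17% of all genes, and for 4 of 9 (C1qa, C1qb, C4b and Cd59a) without WT-D mouse 1, beside 11.5%.

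Between WT-S and 3xTg-S, 1 of 9 genes was called (C3, lower in 3xTg-S) beside 4.25% of all genes, 1 did not overlap (C3) beside 6.75%, and the median log2 fold change was 0.06. Between WT-D and 3xTg-S, 1 was called (C3, lower) beside 5.69%, and 0 of 9 without WT-D mouse 1 beside 4.07%. At an unadjusted p under 0.05, C3, Serping1 and Cd59a differed in that last comparison. Cd59a did not overlap between these groups, beside 9.55% of all genes with all mice and 11.8% with WT-D mouse 1 left out.

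The inhibitor was compared with vehicle within each genotype. In 3xTg mice, 1 of 9 genes was called (C3, lower) beside 0.904% of all genes, 0 of 9 did not overlap beside 3.16%, and 8 of 9 log2 fold changes were negative with a median of −0.43, against 0.01 over all genes. Without 3xTg-D mouse 2 the median was −0.14 and 7 of 9 were negative, against a median of 0.00 over all genes. In WT mice, 0 of 9 were called by edgeR beside 0.188% of all genes, with C4b and Serping1 at an unadjusted p under 0.05, and DESeq2 called 0. There 0 of 9 did not overlap beside 1.48%, or 2.96% with WT-D mouse 1 left out. The median log2 fold change was −0.59 with all mice and 0.01 without WT-D mouse 1, when 0 of 9 were called beside 0.176%, with none at an unadjusted p under 0.05. The interaction of genotype and inhibitor was called for 0 of 9 genes by edgeR, beside 0.595% of all genes, and for 0 by DESeq2, with no gene at an unadjusted p under 0.05. With that mouse left out it was also called for 0 of 9, beside 0.674%, with C3 at an unadjusted p of 0.0366. In edgeR's main fits of all mice, with TMM, the filter on low counts and no block or covariate, no complement gene passed an adjusted p of 0.05. The shares of all genes that did were 1.85% (WT-D vs 3xTg-D), 1.4% (WT-S vs 3xTg-S), 1.58% (WT-D vs 3xTg-S) and 0% in the others. Some complement genes passed it in other edgeR fits of all mice. Between WT-D and 3xTg-D, Serping1 (adjusted p 0.0092) and C1ra (0.0304) did so with the microglia score as a covariate. Between WT-D and 3xTg-S, Serping1 did so with the replicate block (0.0374) and Cd59a with the choroid plexus score as a covariate (0.0482). Between WT-S and 3xTg-S, C4b did so with the microglia score (0.0401).

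**Figure D5:**
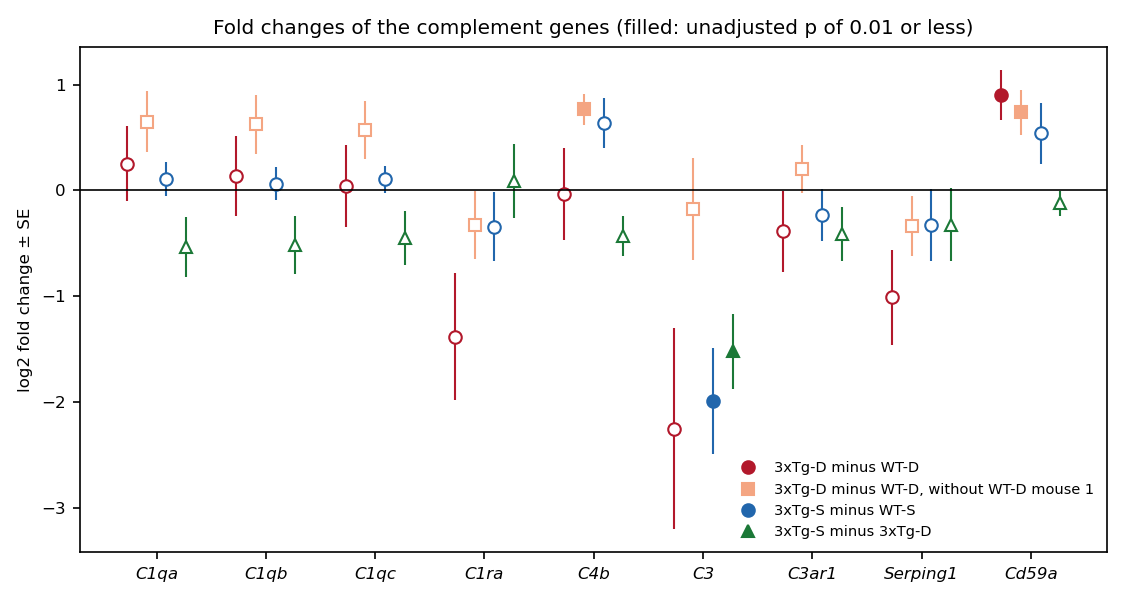
Log2 fold changes with standard errors of the 9 complement genes in 4 contrasts, with filled symbols for an unadjusted p of 0.01 or less in edgeR's test. Filled symbols are C3 between WT-S and 3xTg-S (−1.99) and between 3xTg-D and 3xTg-S (−1.52), Cd59a between WT-D and 3xTg-D with all mice (0.90) and without WT-D mouse 1 (0.74), and C4b between WT-D and 3xTg-D without WT-D mouse 1 (0.77).

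The rest of the pathway was followed in 50 other complement genes, of which 26 had enough counts to be tested. Of these, 2 were lower and 0 higher in 3xTg-D than in WT-D (beside 2.47% and 2.44% of all genes). In 3xTg-S, 1 was lower than in WT-S and 2 were lower than in WT-D, beside 4.25% and 5.69% of all genes called in either direction. In the comparisons of inhibitor with vehicle and in the interaction, 0 of 26 were called, beside 0.904% (3xTg), 0.188% (WT) and 0.595% of all genes. Medians of the log2 fold changes over the 26 genes lay between −0.22 (WT-D vs 3xTg-D) and 0.22 (interaction).

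C5ar2, a receptor of C5a, was at 0.760, 0.384, 0.900 and 1.33 CPM in WT-D and at 0.00, 0.251, 0.106 and 0.272 CPM in 3xTg-D mice, with 8 to 26 and 0 to 6 reads. In WT-S mice it was at 0.281, 0.673, 0.778 and 0.379 CPM and in 3xTg-S mice at 0.131, 0.286, 0.0642 and 0.0539 CPM. All 3xTg mice were below all WT-D mice, and 3xTg-S mouse 2 was just above the lowest WT-S mouse. The log2 fold change was −2.32 ± 0.58 in the vehicle groups (unadjusted p 0.00245, adjusted p 0.0912, edgeR), −1.88 ± 0.56 in the inhibitor groups (p 0.00646, adjusted p 0.183) and −2.54 ± 0.55 between WT-D and 3xTg-S (p 0.000891, adjusted p 0.053). An exon of C5ar2 overlaps the small nuclear RNA gene Gm26473 on the same strand by 127 bases, so its few reads may include some of that gene.

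Cd93, a surface receptor of endothelial and myeloid cells once described as a C1q receptor, was at 4.44 to 6.08 CPM in WT-D and at 3.24 to 4.13 CPM in 3xTg-D mice without overlap, with a log2 fold change of −0.52 ± 0.14 (unadjusted p 0.00419, adjusted p 0.123, edgeR) and of −0.44 (p 0.0145) without WT-D mouse 1. Sez6, a neuronal membrane protein with complement control domains, was called higher in WT-S than in WT-D when the replicate number was used as a block (log2 fold change 0.54, unadjusted p 0.0071, adjusted p 0.92, edgeR), and not without it. With the block it was also called higher in 3xTg-S than in WT-D (0.53, p 0.00604, adjusted p 0.119). Other genes of this list were called with the block in both directions. Among them was Csmd1, higher in 3xTg-S than in 3xTg-D (0.44, p 3.1e-06, adjusted p 0.0226), where 6.88% of all genes were called.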

How the data were processed

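Hippocampal mRNA of 16 mice was sequenced from 1 end, in libraries that carried molecular identifiers. The authors trimmed the reads with Trimmomatic (0.35 in the submitters' processing notes), aligned them to GRCm38 with STAR (2.5.1b), and deposited raw counts per gene. Strand setting and the use of the molecular identifiers are not given in the sources used here. Genes with enough counts (edgeR's filterByExpr over 16 mice, minimum count 10 and minimum total 15) numbered 16475 of 55335. Each pair of groups was fitted alone with edgeR 4.0.16 (TMM, quasi-likelihood test) in R 4.3.3, and the calling threshold was the study's own, an unadjusted p up to 0.01, with Benjamini-Hochberg adjusted p over all genes tested beside it. Fold changes are the second group over the first, and the interaction was fitted on 16 mice. CPM are TMM-scaled, and log2 CPM used a prior count of 2. Exon lengths came from Gencode on GRCm38. Alternatives used DESeq2 1.42.0, another scaling, no filter, all mice in 1 fit, a replicate block, covariates and leaving out mice. The fits were tested on simulated data. Counting error limits low genes.

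Genes were named as the 9 members, the called genes of the other complement list, and the 5 genes most like each of 5 members; some of these are not reported here. The members and lists were chosen with earlier results of these data known. Each sample is taken as 1 mouse, as the labels number them, and p-values measure the spread between these samples. Replicate numbers in the labels were compared across groups: in WT-D vs WT-S, every same-numbered pair of mice correlated in its deviations from the group means (r 0.114 to 0.340), and the replicate block changed no call among the 9 genes there. Protein sequences were not used here.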

Additional observations from a re-analysis of the deposited data

Results flagged for a closer look

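In 11 of the 36 sets of 4 mice (9 genes in 4 groups), 1 mouse stood apart by Dixon's test at the 95% level, where chance gives about 1 in 20. WT-D mouse 1 was high for C1qb (69.9 CPM), C1qc (67.6 CPM), C3 (69.96 CPM), C4b (158 CPM), C3ar1 (7.43 CPM), Serping1 (16.9 CPM) and C1ra (5.57 CPM). 3xTg-D mouse 2 was high for C1qa (71.9 CPM), C1qb (70.02 CPM) and C1qc (61.9 CPM). 3xTg-S mouse 2 was high for Cd59a at 9.91 CPM, where the other 3 mice were at 7.82 to 8.15 CPM. These flags fell on 3 mice and are not independent of each other.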

How the results depend on the processing

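Beside the calls at an unadjusted p of 0.01 with edgeR, values that changed under another setting are given here by setting, and the cause was not tested unless the setting itself removes genes or mice. In parentheses beside a count of called genes is the share of all genes tested that was called under the same setting, given once for each comparison. At an adjusted p of 0.05, called complement genes numbered 0 for WT-D vs 3xTg-D (1.85%), 0 for WT-S vs 3xTg-S (1.4%), 0 for WT-D vs 3xTg-S (1.58%) and 0 for 3xTg-D vs 3xTg-S (0%), and called genes of the other complement list numbered 0 for WT-D vs 3xTg-D, 0 for WT-S vs 3xTg-S and 0 for WT-D vs 3xTg-S. With DESeq2 and its own size factors, called complement genes numbered 2 for WT-S vs 3xTg-S (4.58%) and 3 for WT-D vs 3xTg-S (6.26%), and called genes of the other complement list numbered 0 for WT-S vs 3xTg-S. With DESeq2 and DEGES, called complement genes numbered 2 for WT-S vs 3xTg-S (4.55%) and 3 for WT-D vs 3xTg-S (6.22%), and called genes of the other complement list numbered 0 for WT-S vs 3xTg-S. Without the filter on low counts, called complement genes numbered 4 for WT-D vs 3xTg-D (3.45%), 2 for WT-S vs 3xTg-S (3.17%), 3 for WT-D vs 3xTg-S (3.72%), 4 for 3xTg-D vs 3xTg-S (1.05%) and 2 for WT-D vs WT-S (0.53%), and called genes of the other complement list numbered 5 for WT-D vs 3xTg-D, 2 for WT-S vs 3xTg-S, 1 for 3xTg-D vs 3xTg-S and 2 for WT-D vs WT-S. With all 16 mice in 1 fit, called complement genes numbered 0 for WT-S vs 3xTg-S (5.85%), 2 for WT-D vs 3xTg-S (6.1%) and 0 for 3xTg-D vs 3xTg-S (1.51%), and called genes of the other complement list numbered 1 for WT-D vs 3xTg-D (4.23%). With the replicate number as a block, called complement genes numbered 2 for WT-S vs 3xTg-S (8.12%), 4 for WT-D vs 3xTg-S (6.53%) and 4 for 3xTg-D vs 3xTg-S (6.88%), and called genes of the other complement list numbered 3 for WT-S vs 3xTg-S, 4 for 3xTg-D vs 3xTg-S, 1 for WT-D vs WT-S (0.698%) and 3 for the interaction (3.79%). Under it, the log2 fold change changed sign for C4b (0.27) (WT-D vs 3xTg-D) and for C3 (−0.59) (the interaction). With the choroid plexus score as a covariate, called complement genes numbered 4 for WT-D vs 3xTg-D (3.93%) and 4 for WT-D vs 3xTg-S (3.9%), and called genes of the other complement list numbered 1 for WT-D vs 3xTg-D and 1 for WT-D vs WT-S (0.158%). Under it, the log2 fold change changed sign for C1qb (−0.12) and C1qc (−0.27) (WT-D vs 3xTg-D) and for C3 (−0.0974) (the interaction). With the share of reads outside genes as a covariate, called complement genes numbered 4 for WT-D vs 3xTg-D (4.54%), and called genes of the other complement list numbered 1 for 3xTg-D vs 3xTg-S (1.09%) and 1 for WT-D vs WT-S (0.297%). Under it, the log2 fold change changed sign for C1qa (−0.27), C1qb (−0.40) and C1qc (−0.51) (WT-D vs 3xTg-D) and for C1qa (0.25) and C1qb (0.33) (the interaction). With the microglia score as a covariate, called complement genes numbered 6 for WT-D vs 3xTg-D (5.61%), 2 for WT-S vs 3xTg-S (12.9%) and 3 for WT-D vs 3xTg-S (6.54%), and called genes of the other complement list numbered 4 for WT-D vs 3xTg-D and 6 for WT-S vs 3xTg-S. Under it, the log2 fold change changed sign for C1qa (−0.32), C1qb (−0.45) and C1qc (−0.55) (WT-D vs 3xTg-D), for C1qb (−0.0127) (WT-S vs 3xTg-S), for C1qa (0.0152), C1qb (0.0193), C1qc (0.0719), Serping1 (0.0195) and Cd59a (0.0065) (3xTg-D vs 3xTg-S) and for C1qa (0.26) and C1qb (0.34) (the interaction). Without WT-D mouse 1 and 3xTg-D mouse 2, called complement genes numbered 3 for WT-D vs 3xTg-D (5%). Under it, the log2 fold change changed sign for C4b (0.67) (WT-D vs 3xTg-D) and for C1qc (−0.074), C3 (−1.69), C4b (−0.0332) and C3ar1 (−0.23) (the interaction). Without WT-D mouse 1 and with the replicate block, called complement genes numbered 2 for WT-D vs 3xTg-D (4.72%) and 2 for WT-D vs 3xTg-S (4.29%), and called genes of the other complement list numbered 1 for WT-D vs 3xTg-D and 3 for the interaction (3.52%). Under it, the log2 fold change changed sign for C4b (0.76) and C3ar1 (0.20) (WT-D vs 3xTg-D), for C1qa (0.0706), C1qb (0.0578), C1qc (0.0927) and C4b (0.11) (WT-D vs 3xTg-S), for C1qa (0.0462), C1qb (0.0347), C1qc (0.0188), C1ra (0.097) and Cd59a (−0.17) (WT-D vs WT-S) and for C1qc (−0.43), C3 (−1.59), C4b (−0.0867) and C3ar1 (−0.42) (the interaction). Over the fits that each left out 1 mouse, called complement genes numbered 1 to 2 for WT-D vs 3xTg-D (3.95% to 5.54%), 1 to 2 for WT-S vs 3xTg-S (3.13% to 6.03%), 0 to 3 for WT-D vs 3xTg-S (4.03% to 9.38%) and 1 to 2 for 3xTg-D vs 3xTg-S (0.413% to 4.87%), and called genes of the other complement list numbered 1 to 3 for WT-D vs 3xTg-D, 0 to 2 for WT-S vs 3xTg-S, 0 to 1 for 3xTg-D vs 3xTg-S, 0 to 4 for WT-D vs WT-S (0.134% to 3.13%) and 0 to 1 for the interaction (0.34% to 2.96%). Under it, the log2 fold change changed sign in at least 1 fit for C1qa (−0.16 to 0.65), C1qb (−0.26 to 0.63), C1qc (−0.35 to 0.57), C4b (−0.27 to 0.77) and C3ar1 (−0.60 to 0.20) (WT-D vs 3xTg-D), for C1qa (−0.0216 to 0.24) and C1qb (−0.0283 to 0.21) (WT-S vs 3xTg-S), for C1qa (−0.46 to 0.10), C1qb (−0.57 to 0.0975), C1qc (−0.59 to 0.10) and C4b (−0.71 to 0.32) (WT-D vs 3xTg-S), for Serping1 (−0.57 to 0.0325) and C1ra (−0.27 to 0.25) (3xTg-D vs 3xTg-S), for C1qb (−0.63 to 0.0353), C3 (−2.47 to 0.28), C3ar1 (−0.77 to 0.008) and C1ra (−1.24 to 0.0935) (WT-D vs WT-S) and for C1qa (−0.53 to 0.26), C1qb (−0.55 to 0.32), C1qc (−0.45 to 0.46), C3 (−1.81 to 0.93), C4b (−0.12 to 0.91), C3ar1 (−0.42 to 0.36) and C1ra (−0.0022 to 1.32) (the interaction). edgeR with median-ratio size factors changed no call or direction. The settings without WT-D mouse 1 and 3xTg-D mouse 2 together, and without WT-D mouse 1 with the block, were chosen after seeing the data. Apart from WT-D vs WT-S, where the pairing is given with the methods, not every same-numbered pair had an r over 0.1. The lowest r lay between −0.101 and 0.0616, and the numbers were not taken as pairs there. Every same-numbered pair had a positive r in WT-D vs 3xTg-S (0.0616 to 0.257) and in 3xTg-D vs 3xTg-S (0.0158 to 0.391). Same-numbered pairs had a mean r of 0.0414 (WT-D vs 3xTg-D), 0.241 (WT-S vs 3xTg-S), 0.176 (WT-D vs 3xTg-S) and 0.213 (3xTg-D vs 3xTg-S), against −0.0103, −0.0839, −0.0583 and −0.0656 for other pairs, and 3, 6, 7 and 4 of 8 mice correlated best with their own number. With the block, C1qa (−0.48, p 0.00399), C1qb (−0.46, p 0.00667) and C4b (−0.46, p 0.00997) were called lower in 3xTg-S than in 3xTg-D (adjusted p 0.0988 to 0.145), C4b higher in 3xTg-S than in WT-S (0.64, p 0.00332), and Serping1 (−1.22, p 0.000622) and C1ra (−1.04, p 0.00906) lower and Cd59a (0.81, p 0.0036) higher in 3xTg-S than in WT-D. Without the filter on low counts C1qa (p 0.00922), C1qb (p 0.00984) and C4b (p 0.00313) were also called lower in 3xTg-S than in 3xTg-D. Without it the genes tested numbered 33942 and 33942 in WT-S vs 3xTg-S and 3xTg-D vs 3xTg-S, of which 1077 and 355 were called, against 701 and 149 of 16475 with it. Genes called among all tested with the block were 944, 1338, 1075, 1133, 115 and 624 in WT-D vs 3xTg-D, WT-S vs 3xTg-S, WT-D vs 3xTg-S, 3xTg-D vs 3xTg-S, WT-D vs WT-S and the interaction, against 809, 701, 937, 149, 31 and 98 without it. C1ra, C5ar2 and, in 3xTg-S mice, C3 rested on under 40 reads in most mice, which limits the precision of their folds.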
